A study of Homo sapiens with 3 samples.

Results

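KYSE510 is an established human cell line of esophageal squamous cell carcinoma, a tumor of the stratified epithelium that lines the esophagus. The control cells of this study had been infected for 24 h with a lentivirus that encodes a scrambled hairpin and were then selected for 48 h with 4 µM puromycin, in RPMI-1640 with fetal bovine serum. They are 1 of the 3 samples of the series and 3 of its 9 gene tables, and were chosen by their label alone. The other samples carried hairpins against the transcript TCONS_02256997 and were not used here, so no group was compared and no test was made. The labels do not say whether the 3 control tables are separate cultures, libraries or repeat runs. Every SD below is the spread over the 3 tables of 1 sample. The cells also carry a viral insert and had been under puromycin, so the levels are those of selected control cells, not of untouched KYSE510.

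Squamous epithelium renews from a basal layer that is marked by the transcription factor p63 (gene TP63) and the keratin pair 5 and 14. Keratins form filaments as pairs of 1 type I and 1 type II chain, and epithelia switch pairs as cells move up and mature: keratins 4 and 13 mark the upper layers of the esophagus, keratins 6, 16 and 17 mark wounded or fast-growing epithelium, and keratins 8 and 18 mark simple, one-layered epithelia. SOX2 and TP63 lie on chromosome arm 3q, which is often gained in this carcinoma.

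Levels are given in TPM (transcripts of the gene in each 1000000), a value per transcript length that lets genes be compared within a table. A gene was called expressed at 1 TPM or more in all 3 tables and high at 100 or more in all 3. A gene under 0.1 TPM in all 3 is described as such. Of 19266 genes, 12495 (64.9%) were expressed, 1895 of them high (9.84% of all genes), 3669 (19%) lay under 0.1 TPM and 3102 fell between. The median over all genes was 9.70 TPM. The tables held 15012961 to 15414591 expected counts, and 1 TPM of a gene of 1000 bases stood for about 6 counts per table (5.95 to 6.18). For genes of 100 TPM or more the median coefficient of variation between tables was 2.45%, against 37.9% for genes of 0.1 to 1 TPM, so the order of low genes is not secure. A total of 2975 genes had 0 counts in all tables. For such a gene the limit that 3 counts over all tables allow is given, and it covers counting error only.

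**Figure D1:**
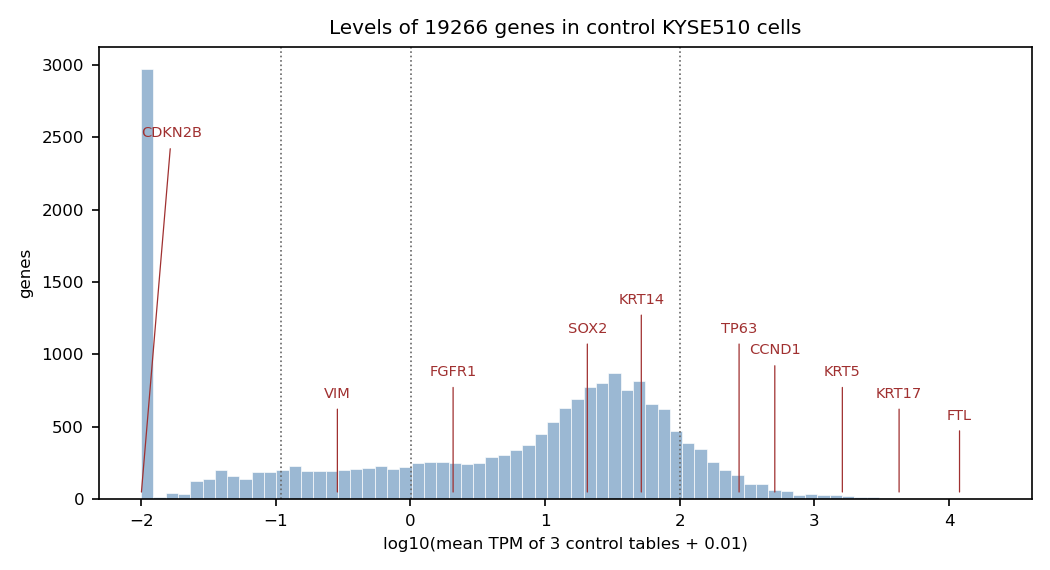
Number of genes (y axis) by log10 of the mean TPM of the 3 control tables plus 0.01 (x axis). Dotted lines mark 0.1, 1 and 100 TPM, and named genes are placed at their mean; CDKN2B lies in the bar of genes near 0, SOX2 and KRT14 lie within the main peak, and KRT5, KRT17 and FTL lie at its upper end.

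All 4 defining squamous markers were expressed, at levels that spanned a wide range. KRT5, the basal type II keratin, read 1599, 1619 and 1612 TPM (mean 1609.85 ± 9.89, SD, n = 3 tables) and was the 64th gene by level. TP63 read 266, 280 and 281 TPM (275 ± 8.58). KRT14, the usual type I partner of KRT5, read 51.95, 51.36 and 51.96 TPM. SOX2, a factor of foregut and squamous progenitors, read 20.01, 21.19 and 20.49 TPM. KRT5 and TP63 were thus among the high genes, whereas KRT14 and SOX2 were expressed below 100 TPM. The ranges did not overlap: KRT5 stood 31.1 ± 0.374 times above KRT14, and TP63 13.4 ± 0.288 times above SOX2. TP63 gives full-length and truncated proteins from different promoters, and these gene-level values do not tell them apart.

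The core promoters of the keratins are shown because genes of very different level carry the same short sequence there. Promoter sequence was taken from RefSeq, build GRCh38.p14, which held 34 of the 55 keratins and 15292 of the 19266 genes. A single start was kept for each gene. Which start these cells used was not measured, so a gene's TPM may come from another start. The 45 bases before the transcription start are printed 5′ to 3′ on the gene's strand, and capitals mark ATAAA, the letters within a TATA box, where they lie from 40 to 16 bases before the start. All 8 genes lie on the minus strand. They are examples picked by no set rule, so how many of them hold the letters is not a result. Among those not printed, the expressed KRT10, KRT34 and KRT24 hold ATAAA, and KRT26, with no count, does not. The first 4 were expressed:
KRT8: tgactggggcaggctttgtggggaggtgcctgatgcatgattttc
KRT5: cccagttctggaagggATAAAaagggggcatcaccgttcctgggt
KRT75: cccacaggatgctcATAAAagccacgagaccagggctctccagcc
KRT4: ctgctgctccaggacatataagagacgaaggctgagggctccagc
The next 4 had 0 counts in all tables:
KRT71: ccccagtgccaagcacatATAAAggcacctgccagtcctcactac
KRT76: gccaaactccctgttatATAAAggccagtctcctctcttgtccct
KRT20: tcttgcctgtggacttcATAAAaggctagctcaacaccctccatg
KRT37: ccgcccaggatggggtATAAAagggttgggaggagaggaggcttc
These windows lie at chr12:52926470-52926514 (KRT8), chr12:52520395-52520439 (KRT5), chr12:52434372-52434416 (KRT75), chr12:52814117-52814161 (KRT4), chr12:52553146-52553190 (KRT71), chr12:52777346-52777390 (KRT76), chr17:40885243-40885287 (KRT20) and chr17:41424586-41424630 (KRT37).

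ATAAA stood in that window in 24 of the 34 keratin promoters (70.6%), against 6.10% of all 15292 promoters. On the opposite strand it stood in 1.59% of all promoters. Only 7 of the 19 expressed keratins had a promoter sequence here, and KRT17, KRT7, KRT15 and KRT18 were among those without one. ATAAA was found in 5 of these 7 and in 19 of 27 keratins that were not expressed (71.4% and 70.4%). With most expressed keratins missing, these shares do not describe the expressed keratins as a whole. At the start kept for each gene, KRT5, at 1609.85 TPM, and KRT71, with no count, both hold it. KRT8, at 2093 TPM, does not at its kept start, which need not be the start of its abundant transcript. Genes of the mature mucosa held it in 15 of 24 promoters (62.5%), squamous transcription factors in 2 of 20 and ribosomal protein genes in 4 of 70. Over all genes the share was 4.73% at 100 TPM or more, 3.18% at 1 to 100 TPM and 12.7% under 0.1 TPM. The observed-to-expected CpG ratio of the 300-base promoter had medians of 0.865 for high genes, 0.834 at 1 to 100 TPM, 0.339 under 0.1 TPM and 0.140 for the keratins. A match describes these letters only and is not a measured binding site.

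Keratins numbered 55 in the tables: 19 were expressed (34.5%, against the 64.9% of all genes). Under 0.1 TPM lay 15 (27.3%, against 19% of all genes), 11 of them with no count. Together the 55 keratins made up 1.23% ± 0.0038 of all TPM. The 6 highest, KRT17, KRT8, KRT5, KRT7, KRT15 and KRT18, each exceeded 1000 TPM and together held 95.6% ± 0.086 of the keratin total. KRT17, a type I keratin of wounded and growing epithelium, read 4262, 4207 and 4274 TPM and was the 7th gene of the whole transcriptome. KRT8, a type II keratin of simple epithelia, read 2127, 2060.14 and 2092 TPM. KRT7, also of simple and glandular epithelia, read 1467, 1516 and 1491 TPM. KRT15, a basal type I keratin, read 1170.54, 1162 and 1144 TPM. KRT18, the partner of KRT8, read 1159.77, 1145 and 1124 TPM. KRT17, KRT8, KRT5 and KRT7 kept this order in each table, while the ranges of KRT15 and KRT18 overlapped.

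**Figure D2:**
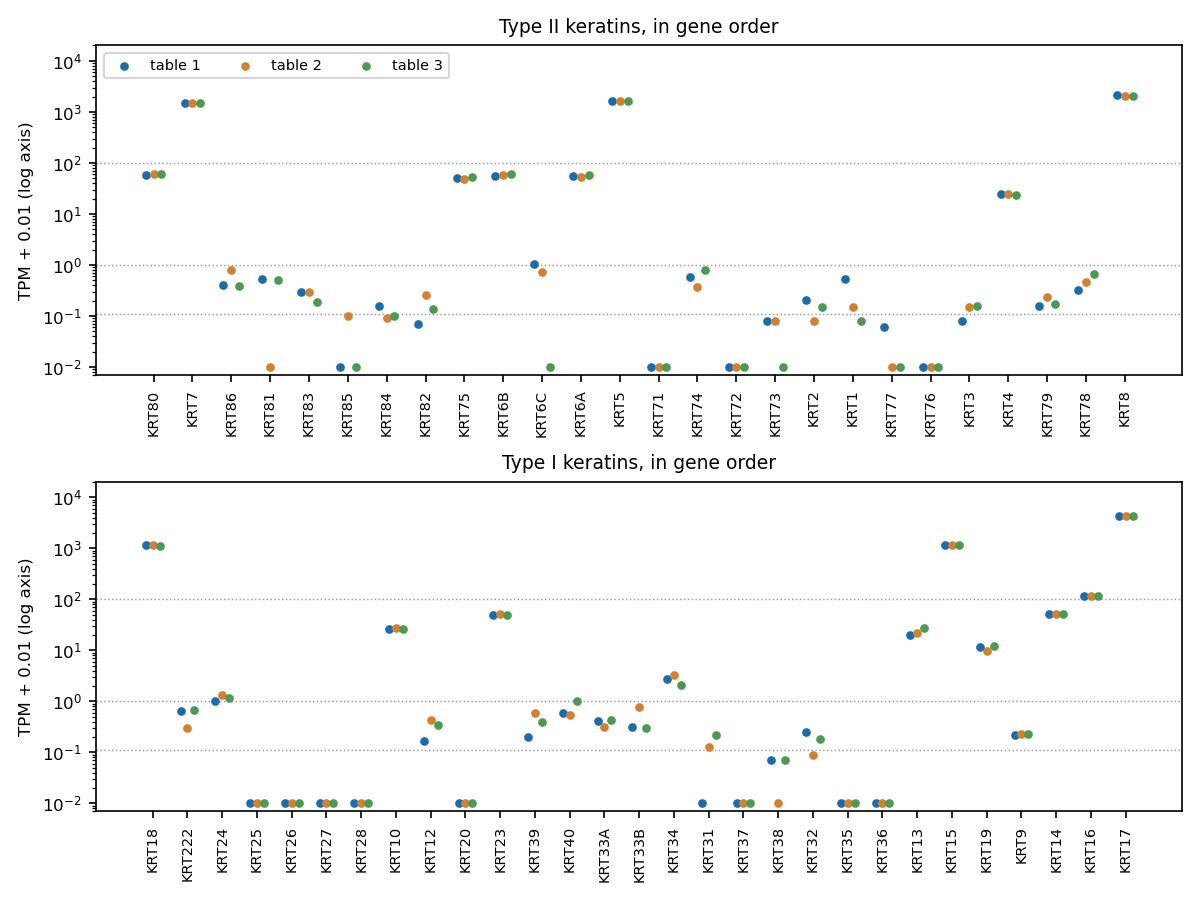
TPM plus 0.01 on a log axis for type II (upper) and type I (lower) keratins, in their gene order, with 1 point per control table. Dotted lines mark 0.1, 1 and 100 TPM. KRT17, KRT8, KRT5, KRT7, KRT15 and KRT18 stand above 1000 TPM, and neighbouring keratins such as KRT71, KRT72, KRT25 and KRT26 sit at 0.

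The partners of 2 textbook pairs did not stand at equal levels: KRT5 exceeded KRT14 as given above, and KRT8 exceeded KRT18 by 1.83 ± 0.0316 times. Among type I genes, KRT17 exceeded KRT14 by 82.1 ± 0.165 times and KRT16 by 36.5 ± 0.488 times. Summed over the whole family, the 29 type I genes reached 6835 ± 38.9 TPM and the 26 type II genes 5446 ± 6.13 TPM, a ratio of 1.25 ± 0.0076. KRT14, KRT16 and KRT17 are close copies of each other, as are KRT6A, KRT6B and KRT6C, and reads can be shared among copies, so the split within each trio is uncertain. Their sums were 4416 ± 38.2 and 113.75 ± 2.81 TPM.

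A middle tier held KRT16 (117, 114 and 118 TPM), KRT80, KRT6B, KRT6A, KRT14, KRT75 and KRT23. KRT6B read 55.3, 58.0 and 59.4 TPM and KRT6A 55.8, 53.4 and 57.6 TPM, and these ranges overlapped, as did those of KRT14 and KRT75 and of KRT75 and KRT23. The pair of the upper esophageal layers was lower and overlapped: KRT4 read 24.7, 24.7 and 23.8 TPM and KRT13 19.9, 22.2 and 27.0 TPM. KRT10, of cornified skin, read 26.58, 27.22 and 26.01 TPM. Its type II partner KRT1 had 11 counts in all and read 0.52, 0.14 and 0.07 TPM. KRT19 read 11.8, 9.77 and 12.1 TPM. KRT34 and KRT24 completed the expressed keratins, at means of 2.70 and 1.16 TPM.

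The most abundant transcripts came from iron storage, glycolysis, the cytoskeleton and the ribosome. The 10 highest genes held 6.36% ± 0.0142 of all TPM and the 100 highest 23.5% ± 0.249. FTL, the ferritin light chain, read 11818, 12064 and 11928 TPM. FTH1, the ferritin heavy chain, read 10149, 10170.1 and 10303 TPM. The ferritin chains ranked first and second in each table and together held 2.21% of all TPM, more than all 55 keratins. GAPDH, a glycolytic enzyme, followed at 8028, 7940 and 8092 TPM. ACTB, the beta-actin gene, read 5314, 5657 and 5583 TPM. Of the 30 highest genes, 13 encode ribosomal proteins, and all 87 ribosomal protein genes held 12.6% ± 0.332 of TPM. Ferritin, actin, translation factor and ribosomal protein genes have many processed copies elsewhere in the genome, and how reads from those were assigned was not tested.

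Several of the 30 highest genes are not housekeeping genes. B2M, the light chain of the class I antigen-presenting complex, read 4199, 4092 and 3972 TPM. S100A11, a calcium-binding protein of epithelia, read 3726, 3680.3 and 3691 TPM. LCN2, a secreted protein that binds iron-carrying siderophores, read 3154, 3136 and 3140 TPM (SD 9.16) and was the 16th gene. IFITM3, an interferon-inducible membrane protein that limits virus entry, read 3236, 3211 and 3205 TPM. IFI6, also interferon-inducible, read 2838, 2753 and 2416 TPM. Its spread (SD 223) was the largest in percent of the mean among the 30, with the last of the tables the lowest. All these cells carried lentivirus, and no uninfected cells were analysed here.

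Of 34 listed transcription factors of squamous and other surface epithelia, 31 were expressed (91.2%, against 64.9% of all genes). Their median was 36.1 TPM, against 9.70 TPM over all genes. The list was chosen with earlier results of these data known, so its share is not an independent measure of cell identity. Of the 34, 8 reached 100 TPM in all tables, where 9.84% of all genes did. MYC, the growth factor-responsive proto-oncogene, led with 604, 604 and 612 TPM. ELF3, an epithelial ETS factor, read 505, 501 and 498 TPM, below MYC in each table. KLF5, a factor of proliferating epithelium, read 222, 221 and 231 TPM. PITX1, RUNX1, TFAP2C and SOX15 also stood above 100 TPM, with means of 131, 123, 116 and 103. TFAP2A read 93.1, 104 and 102 TPM, below TFAP2C in each table. ZNF750, a differentiation factor mutated in this carcinoma, read 9.13, 9.53 and 9.72 TPM. TFAP2B had no count, and BARX1 and IRX4 were not expressed by the rule.

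Of 18 listed factors and products of glandular and intestinal epithelium 2 were expressed (11.1%, against 64.9% of all genes) and 10 lay under 0.1 TPM (55.6%, against 19% of all genes). The expressed ones were FOXA1 and GATA6, both endoderm factors. Outside that list, KRT7 was high, and HNF4G, a nuclear receptor of gut epithelium picked out after its value was seen, had a mean of 4.53 TPM. FOXA1 read 119, 127 and 125 TPM, a ratio to TP63 of 0.448 ± 0.0054. GATA6 read 23.6, 25.2 and 24.8 TPM. CDX1, CDX2, FOXA3, SOX17, TFF1, TFF3 and KRT20 had no count.

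**Figure D3:**
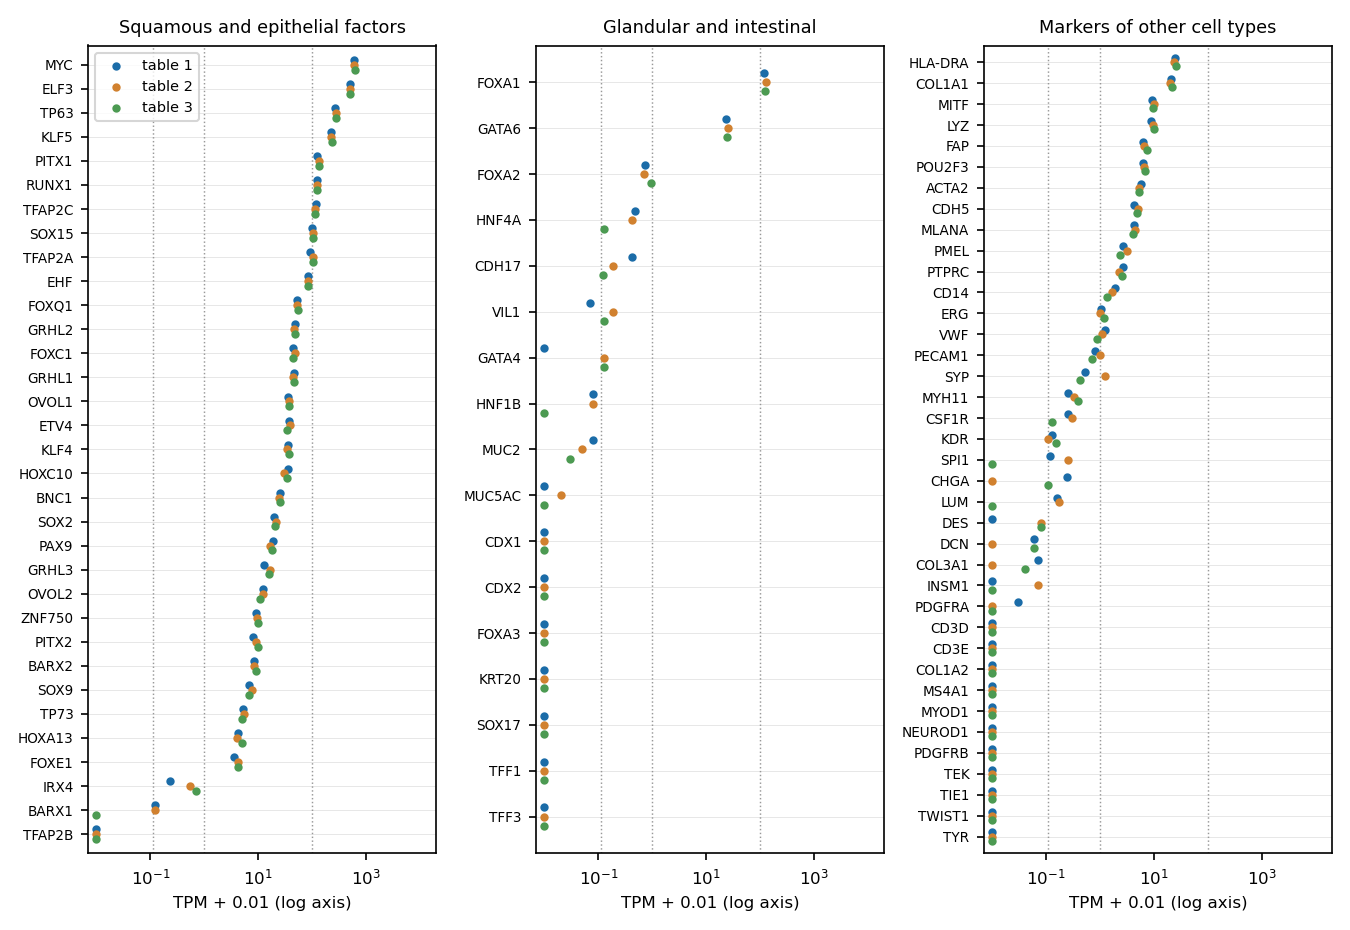
TPM plus 0.01 on a log axis for squamous and epithelial transcription factors, glandular and intestinal genes, and markers of other cell types, with 1 point per control table and genes sorted by mean. Dotted lines mark 0.1, 1 and 100 TPM; most of the first list lies to the right of 1 TPM, while FOXA1 and GATA6 stand apart from the rest of the second.

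Markers of other cell types were expressed in 12 of 40 cases (30%, against 64.9% of all genes). None was high, where 9.84% of all genes were, and 18 lay under 0.1 TPM (45%, against 19% of all genes). Their summed levels over the tables were 26.6 to 28.8 TPM for 9 fibroblast genes, 7.40 to 8.24 for 7 endothelial genes and 37.3 to 39.5 for 10 immune genes. The 6 neuroendocrine and tuft genes summed to 7.04 to 7.71 TPM and the 8 muscle and melanocyte genes to 21.4 to 23.0. Within a list the members did not move together. COL1A1, the first chain of type I collagen, read 20.6, 20.1 and 21.4 TPM, whereas COL1A2, its second chain, had no count, which allows up to 0.0306 TPM. HLA-DRA, a class II antigen-presenting chain, read 24.4, 23.5 and 25.4 TPM, while CD3D, CD3E and MS4A1 had no count. PTPRC, the leukocyte antigen CD45, rested on 64.85 counts in all and read 2.59, 2.19 and 2.50 TPM. POU2F3, listed as a tuft cell factor, read 6.29, 6.43 and 6.83 TPM, with NEUROD1 at no count. POU2F3 was the only expressed gene of its list, and whether it marks tuft cells here was not tested. In bulk RNA, fewer cells of a type and less RNA per cell cannot be told apart.

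Of 22 desmosome and adherens junction genes 18 were expressed (81.8%, against 64.9% of all genes) and 10 were high, where 9.84% of all genes were. JUP, plakoglobin of desmosomes and adherens junctions, read 624, 623 and 644 TPM. CDH3, P-cadherin of basal cells, read 522, 519 and 540.14 TPM and exceeded CDH1, E-cadherin, by 2.42 ± 0.099 times. EPCAM, a surface protein of many carcinomas, read 466, 494 and 491 TPM. Among desmogleins, DSG2 (201, 202 and 197 TPM) exceeded DSG3 (57.8, 59.1 and 60.3 TPM), the form that dominates in esophageal mucosa, by 3.39 ± 0.104 times. DSG1, of upper layers, had 1 count and DSG4 none. PKP1, CDH2 and VIM were picked out after their values were seen. PKP1, a plakophilin of stratified epithelia, read 1.33, 2.05 and 1.71 TPM. CDH2, N-cadherin, read 1.36, 1.63 and 1.88 TPM. VIM, the mesenchymal filament protein vimentin, read 0.37, 0.31 and 0.15 TPM on 11 counts in all.

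Integrins, which anchor basal cells to the basement membrane, were expressed in 14 of 26 cases (53.8%, against 64.9% of all genes). ITGA3 (314, 313 and 325 TPM) and ITGB1 (297, 305 and 315 TPM) overlapped. The hemidesmosome pair stood next, with ITGB4 at 205, 211 and 214 TPM and ITGA6 at 188, 194 and 205 TPM, ITGB4 the higher in each table by 1.07 ± 0.0237 times. ITGA9, ITGA10, ITGA11, ITGAD and ITGB3 lay under 0.1 TPM.

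Receptor tyrosine kinases, the surface receptors through which growth factors signal, were expressed in 30 of 58 cases (51.7%, below the 64.9% of all genes). Of the 58, 4 were high, where 9.84% of all genes were. DDR1, a collagen receptor of epithelia, read 372, 367 and 371 TPM, 2.24 ± 0.028 times EPHA2, an ephrin receptor at 164, 165 and 167 TPM. PTK7, a Wnt-pathway pseudokinase, read 152, 157 and 154 TPM. MET, the receptor of hepatocyte growth factor, read 132, 138 and 135 TPM. These 4 kept the same order in each table.

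EGFR, the receptor of epidermal growth factor, read 70.1, 76.3 and 73.5 TPM. Its relatives ERBB2 (54.5, 57.2 and 54.8 TPM) and ERBB3 (52.9, 50.8 and 53 TPM) lay below it, and ERBB4 had 19 counts and read 0.05, 0.08 and 0.12 TPM. EGFR held 40.5% ± 0.946 of the TPM of the 4, so no member dominated. Of the fibroblast growth factor receptors, FGFR3 read 48.9, 49.1 and 47.6 TPM, FGFR4 36.9, 36.4 and 35.4, and FGFR2 23.96, 25.4 and 25.98. FGFR1, the member amplified in some squamous tumors, read 2.32, 2.2 and 1.67 TPM, with FGFR3 23.96 ± 3.98 times above it. Of the kinases, 15 lay under 0.1 TPM (25.9%, against 19% of all genes), among them ALK and PDGFRA, and KIT, RET, FLT3, EPHA7, INSRR, PDGFRB, TIE1 and TEK had no count.

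**Figure D4:**
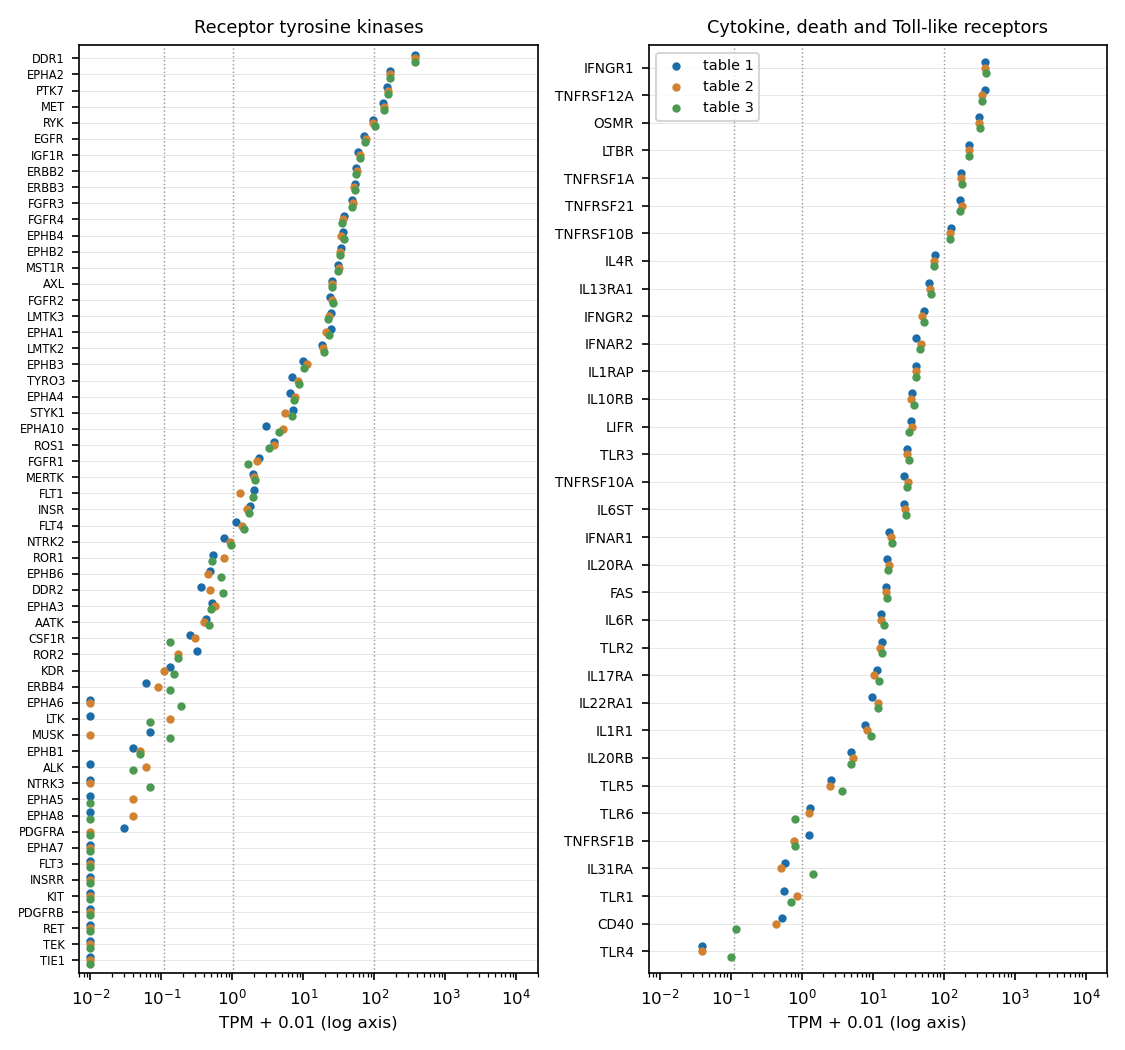
TPM plus 0.01 on a log axis for receptor tyrosine kinases (left) and cytokine, death and Toll-like receptors (right), with 1 point per control table and genes sorted by mean. Dotted lines mark 0.1, 1 and 100 TPM; DDR1 leads the kinases and IFNGR1 the other receptors, and kinases such as KIT and RET sit at 0 in every table.

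The highest ligands of the ERBB receptors stood at moderate levels, and others were lower. EGF, picked out after its value was seen, had a mean of 1.90 TPM. EREG read 46.6, 49.4 and 49.4 TPM, AREG 40.0, 38.1 and 45.3, NRG1 37.6, 37.6 and 34.4 and HBEGF 33.7, 34.9 and 37.0. EREG stood above the other ERBB ligands in each table, and the ranges of NRG1 and HBEGF overlapped. VEGFA, the main endothelial growth factor, was the highest of 31 ligands at 354, 350.41 and 384 TPM. KITLG, the ligand of KIT, read 112, 108 and 110 TPM while KIT itself had no count. HGF, the ligand of MET, had a mean of 0.0767 TPM, a gene picked out after its value was seen. Over the list 21 of 31 ligands were expressed (67.7%), a share near the 64.9% of all genes.

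Other receptor groups were described by the same rule. Of 33 cytokine, death and Toll-like receptors 27 were expressed (81.8%, against 64.9% of all genes). IFNGR1, of the interferon-gamma receptor, read 387, 377 and 389 TPM, TNFRSF12A, the TWEAK receptor, 378, 351 and 345, and OSMR, the oncostatin M receptor, 314, 317 and 326. TLR4 was the only one under 0.1 TPM in all tables. Of 9 Notch genes 7 were expressed (77.8%, against 64.9% of all genes). They were led by NOTCH3 (91.5, 97.2 and 100.07 TPM), the ligand JAG2 (74.8, 70.6 and 73.7) and NOTCH2 (66.4, 68.5 and 69.2), and DLL4 was under 0.1 TPM. Of 18 Frizzled and Wnt co-receptors 14 were expressed (77.8%, against 64.9% of all genes) and none was high, where 9.84% of all genes were. LGR5, a stem cell marker of the intestine, lay under 0.1 TPM. Of 14 TGF-beta family receptors 11 were expressed (78.6%, against 64.9% of all genes). ACVR1B was highest at a mean of 27.3 TPM, with TGFBR2 at 23.1.

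Nuclear receptors bind DNA in response to hormones and lipids, and 29 of 47 were expressed (61.7%, a share near the 64.9% of all genes). RARG, the retinoic acid receptor of epidermis, read 166, 165 and 171 TPM. Among the 3 retinoic acid receptors it held 84.0% ± 0.782, with RARA at a mean of 31.3 TPM and RARB, which is often lost in this carcinoma, at 0.42, 0.46 and 0.50. ESR1, the estrogen receptor alpha, read 47.0, 48.6 and 50.2 TPM, whereas PGR, the progesterone receptor, had no count (up to 0.0137 TPM).

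Paralog choice was examined in 52 families of related genes. In 17 of them 1 member held at least 80% of the family's TPM, and in 13 the highest member held under 50%. SOX2 was the only SOXB1 gene with counts. MYC held 99.7% of the MYC family and CCND1 92.0% ± 0.48 of the D-type cyclins. CDK4 held 84.2% over CDK6, and YAP1 84.3% over WWTR1. RUNX1 held 89.2% of the RUNX factors. Of the INK4 inhibitors, which block CDK4 and CDK6, CDKN2D held 84.0% ± 4.34, with a mean of 9.05 TPM. In glycolysis and transport, PKM, PGAM1, ENO1, ALDOA and SLC2A1 held 99.9965%, 99.1%, 98.4%, 94.5% and 96.6% of their families.

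Other families were shared. LDHB, the lactate dehydrogenase chain of aerobic tissue, read 911, 888 and 876 TPM and exceeded LDHA, the glycolytic chain, at 584, 536 and 551 TPM, by 1.60 ± 0.049 times. TMSB10, a thymosin that binds actin monomers, exceeded TMSB4X by 2.67 ± 0.0861 times. The TEAD factors, DNA-binding partners of YAP1, were split, with TEAD2 highest at 34.6%. Of the class I PI3-kinase subunits PIK3CB held 39.2% and exceeded PIK3CA by 1.37 ± 0.044 times.

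Of 48 genes that are recurrently mutated, amplified or lost in esophageal squamous carcinoma, 40 were expressed (83.3%, against 64.9% of all genes). Of the 48, 9 were high, where 9.84% of all genes were, and 2 lay under 0.1 TPM (4.17%, against 19% of all genes). The high ones were MYC, CCND1, VEGFA, NFE2L2, TP63, XPO1, YAP1, FAT1 and AJUBA. NFE2L2, the oxidative stress factor NRF2, read 275, 273 and 286 TPM, and KEAP1, which targets it for degradation, 22.8, 19.9 and 22.9. RB1, the retinoblastoma protein, read 57.0, 55.9 and 60.6 TPM. PIK3CA read 15.9, 16.4 and 16.9 TPM. RB1, PIK3CA and KEAP1 were picked out after their values were seen. RNA levels do not show whether a gene is mutated.

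At the low end, CDKN2B, a cell cycle inhibitor, had no count, which allows up to 0.0421 TPM. CDKN2A, its neighbour, which encodes p16 and ARF, had 1 count in 1 table and none in the others. That 1 count came to 0.15 TPM, so CDKN2A is not among the 2 under 0.1 TPM by the rule. CSMD3 read 0.04, 0.03 and 0.03 TPM on 7 counts. FHIT (1.05, 1.03 and 0.85 TPM), TERT (0.87, 0.91 and 0.65), LRP1B (0.36, 0.41 and 0.43) and FAT4 (0.22, 0.11 and 0.25) were detected but not expressed by the rule.

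The neighbours of CDKN2A at 9p21 differed in level. In gene order, KLHL9 read 20.1, 19.7 and 19.4 TPM. IFNA6, IFNA13, IFNA2, IFNA8 and IFNA1, genes of type I interferons, followed with 0, 0, 0, 1 and 0 counts. IFNE, another interferon gene, read 1.4, 1.34 and 2.01 TPM. MTAP, which salvages methionine and lies next to CDKN2A, read 50.8, 50.3 and 50.9 TPM on 4606 counts. CDKN2A, CDKN2B and DMRTA1 followed with 1, 0 and 0 counts. ELAVL2, the next gene, read 11.2, 11.97 and 12.75 TPM. CDKN2A, CDKN2B and DMRTA1 were thus flanked by MTAP and by ELAVL2, which had 826 counts, and the interferon alpha genes on the other side of MTAP were at or near 0 as well. The cause was not tested, and DNA was not measured.

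The neighbours of CCND1 at 11q13, a region often amplified in this carcinoma, were unequal. CTTN, the actin-binding protein cortactin, read 1679, 1753 and 1770.49 TPM, 3.42 ± 0.05 times CCND1, cyclin D1, at 499, 513 and 511. PPFIA1, a liprin of cell adhesion sites, read 437, 440.04 and 448 TPM. FADD, an adaptor of death receptors, read 152, 157 and 154 TPM. ANO1, a chloride channel that lies between FGF3 and FADD, read 3.57, 3.88 and 3.87 TPM. FGF19 read 0.97, 0.93 and 1.54, FGF3 had 1 count and FGF4 none. CTTN, CCND1, PPFIA1 and FADD were thus high, while FGF3 and FGF4 among them were at or near 0. On 3q, 14 genes were listed, SOX2, TP63 and chosen neighbours, and all were expressed (100%, against 64.9% of all genes). Their means ran from 7.94 TPM for MECOM to 275 for TP63. SOX2 ranked 12th of the 14, an order read after the values were seen. Copy number of 3q was not measured.

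Genes of the mature esophageal surface were expressed in 17 of 32 cases (53.1%, against 64.9% of all genes). Of the 32, 1 was high, where 9.84% of all genes were, and 4 lay under 0.1 TPM (12.5%, against 19% of all genes). PPL, periplakin of the cornified envelope, read 151, 152 and 159 TPM, and EVPL, envoplakin, 25.2, 25.6 and 26.2. TGM1, a transglutaminase that crosslinks the envelope, read 22.4, 21.6 and 20.5 TPM. CRNN, MAL and LORICRIN had no count, and ENDOU had 1. By counts, 9 of the 32 had at most 3 in each table, and the share of all genes by that rule was not computed. CRNN, cornulin, and MAL are among the most abundant transcripts of normal esophageal mucosa, and their limits were 0.0867 and 0.165 TPM. Picked out after their values were seen, IVL, involucrin, read 2.37, 1.93 and 1.84 TPM, and SPRR3, the main small proline-rich protein of the esophagus, had 1 count in all. SPRR1A (0.76, 3.34 and 1.95 TPM) and SPRR1B (4.70, 2.00 and 2.04) differed between tables by more than most genes of their level, and they are close copies.

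**Figure D5:**
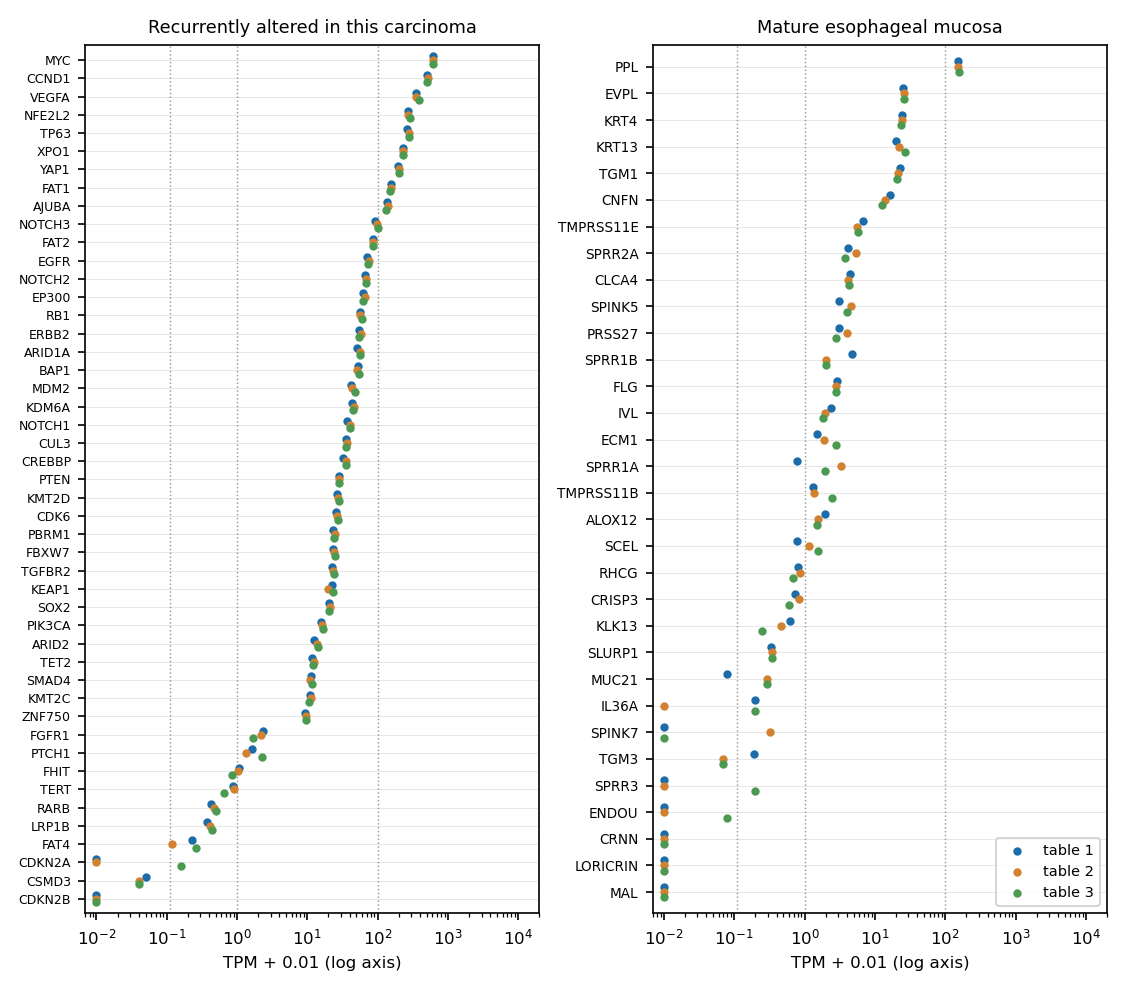
TPM plus 0.01 on a log axis for genes recurrently altered in esophageal squamous carcinoma (left) and genes of mature esophageal mucosa (right), with 1 point per control table and genes sorted by mean. Dotted lines mark 0.1, 1 and 100 TPM; MYC and CCND1 lead the left list with CDKN2A, CSMD3 and CDKN2B at its foot, and PPL alone exceeds 100 TPM on the right.

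Of 41 secreted cytokines and proteases 31 were expressed (75.6%, against 64.9% of all genes) and 12 were high, where 9.84% of all genes were. Below LCN2 came CCL5 (568, 571 and 604 TPM), CXCL1 (532, 530 and 505), CXCL8 (485, 483 and 483) and CCL20 (449, 417 and 434), chemokines that attract lymphocytes, neutrophils and dendritic cells. PLAU, the urokinase protease, read 237, 221 and 214 TPM. The interleukin-1 genes IL1A (198, 195 and 195 TPM) and IL1B (192, 184 and 196) overlapped. MMP9, CCL2 and CXCL5 had no count, and MMP3, MMP10 and CXCL14 also lay under 0.1 TPM. All 25 listed genes of antigen presentation and immune ligands were expressed (100%, against 64.9% of all genes). Of the 25, 10 were high, where 9.84% of all genes were. Below B2M, the high ones included HLA-C (1675, 1619 and 1636 TPM) and HLA-B (1238, 1227 and 1164). The HLA genes are close copies that vary between people, so reads may have been split or lost among them.

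Cancer-testis genes are normally limited to germ cells, and many are immunotherapy targets. Of 31 measured, 5 were expressed (16.1%, against 64.9% of all genes). Under 0.1 TPM lay 17 (54.8%, against 19% of all genes), 14 of them with no count. MAGEA6 read 105, 96.8 and 99.8 TPM, IGF2BP3, an RNA-binding protein of fetal tissue, 79.2, 80.7 and 81.5, and LY6K, a membrane antigen, 37.2, 40.7 and 39.5. DDX43, an RNA helicase, read 27.2, 25.8 and 28.6 TPM, and MAGEA12 14.1, 16.3 and 12.5. MAGEA4, PRAME, CTAG2 and CTAG1B, which encodes the antigen NY-ESO-1, had no count. MAGEA genes are near-identical copies, so the level of any 1 of them is uncertain, and MAGEA3 was not analysed here.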

How the data were processed

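Values are from the 3 gene tables of the control sample. Per the file headers, each gene row deposited by the authors holds its expected count, FPKM, TPM and lengths. RSEM 1.2.12, HISAT2 2.0.4, DESeq2 1.4.5 and Bowtie2 2.2.5, with build hg19, are listed in the submitters' processing notes without their roles. The deposited effective length equals the transcript length in every gene, and within a table TPM is a fixed multiple of FPKM, so short genes may read low. Whether counting used strand is not stated here, and overlapping and antisense genes cannot be told apart. The tables differed beyond sampling noise (chi-square per degree of freedom 1.75 over 12563 genes with a mean of 20 counts or more) and none were identical. Symbols came from RefSeq (19223 of 19266 matched). Python 3.11.15, pandas 2.3.3 and numpy 2.4.6 gave means, SDs, classes, shares and ratios. Only the classes, the share of the 10 highest genes and the share of a family's leading member were checked on simulated data. There was no test. Some members of the lists count in the totals but are not reported here by name or drawn. Named genes were the markers, the 30 highest genes, up to 10 highest and all under 0.1 TPM of each list, keratins at 1 TPM or more, the altered genes at either end and the top members of each family; others are named as picked after their values were seen, or as neighbours or partners. Members and lists were chosen with earlier results of these data known. The alternatives were other thresholds, FPKM, levels rebuilt from counts, totals without ribosomal protein genes and leaving out each table.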

Additional observations from a re-analysis of the deposited data

How the results depend on the processing

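Of 110 alternative values for 13 results, 94 stayed within the bounds set for them, including all 39 that left out 1 table. The bounds are not given here and let counts change, so staying within them does not mean an unchanged value. Expressed markers of other cell types, at 9 by FPKM and 15 at 0.5 TPM in place of 12, stayed within them. So did expressed receptor tyrosine kinases, at 25 by FPKM in place of 30. Within a table FPKM is a fixed multiple of TPM, so it could not move shares of TPM or families with a leading member. The other 16 values follow. At 0.5 TPM, 4 glandular genes were expressed in place of 2. Mucosa genes near 0 numbered 7 by FPKM, 9 at no more than 3 counts per table and 13 under 1 TPM, in place of 4, and altered genes 7 under 1 TPM in place of 2. Families with a leading member numbered 34 at 60% and 10 at 90%, in place of 17. The shares of TPM in keratins, the 10 highest and the 100 highest genes were 1.41%, 6.63% and 20.8% without ribosomal protein genes, 1.2327%, 6.27% and 23.2% from counts over length, and 1.19%, 7.04% and 25.9% with lengths shortened by an assumed fragment of 200 bases, an alternative chosen after seeing the data. For the changed thresholds and totals the shift follows from the setting itself; for the values from counts or shortened lengths the cause was not tested. Depth limits genes under 1 TPM, where 1 count decides a class, as for CDKN2A. No paired analysis was possible because no groups were compared.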

Other observations

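Among the genes of at least 10 TPM with the largest spread between the 3 tables were several that share sequence with a neighbour or copy. FABP6 (8.03, 17.37 and 9.81 TPM, on 120 counts in all), TMEM238 and COMMD5 were also among them, and were not examined for copies. CDRT4 read 5.04, 12.08 and 21.87 TPM, while its readthrough transcript TVP23C-CDRT4 read 30.36, 22.52 and 14.16 TPM. SMN2 read 42.13, 21.07 and 41.24 TPM. Summed over copies, the spread was smaller: the coefficient of variation was 3.23% for CDRT4, TVP23C and their readthrough together and 4.34% for SMN1 and SMN2 together, against 65.0% for CDRT4 alone and 34.2% for SMN2 alone. SERF1A and SERF1B together kept 12.1%, against 64.7% for SERF1B alone. These genes and sums were chosen after their values were seen.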
